A study of Rhodotorula toruloides with 36 samples.

Results

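The transcripts described here lie near the ends of the assembled scaffolds of *R. toruloides* strain IFO0880. A transcript was taken as an end transcript if it lay wholly within the outermost 25 kb of its scaffold, on a scaffold with at least 100 listed transcripts. Scaffold lengths were not listed, so the highest end coordinate on a scaffold stood in for its length. The 18 scaffolds of that size have 36 ends and 8482 of the 8493 listed entries. Of these, 360 were end transcripts (172 at scaffold starts and 188 at scaffold ends) and 8122 lay farther inside and are called inner transcripts. RNA was sequenced from the engineered strains BIS18, BIS14, BIS3 and GB2 and from WT, each at 48 h and at 18 h of growth in synthetic defined medium with glucose, for which the labels and the study's methods give different amounts, with 3 libraries per engineered strain and 6 of WT at each time. BIS18, BIS14 and BIS3 have the genotype IFO0880/P_GAPDH-BIS, in which the native GAPDH promoter drives an α-bisabolene synthase, and their cassette copy number rises in that order. GB2 was built from BIS3 and carries P_ANT-BIS as well, and WT is IFO0880 without a cassette. Each strain is a single line with cassettes at random loci, so an effect of the insertion site cannot be told apart from an effect of the synthase. The samples at 18 h and 48 h stand for exponential and stationary growth. WT replicate 2 at 48 h was left out by the rule for these transcripts, which left 35 libraries. Where WT has 5 values at 48 h, they are replicates 1, 3, 4, 5 and 6.

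Chromosome ends in fungi are capped by telomeres, and genes beside them can be held silent by chromatin that spreads inward from the telomere, as was worked out in *Saccharomyces cerevisiae*. Subtelomeric regions of many fungi also hold duplicated segments and gene families that vary between strains. Whether a scaffold end here is a telomere or a break in the assembly was not known, since the scaffold sequences were not used here. The listed transcripts have numbers and no gene names. These numbers gave 0 matches to the identifiers in a gene table of another *R. toruloides* strain, which does not show that functions are unknown. The study links protein IDs of IFO0880 to gene names, and whether the transcript numbers are those IDs was not examined here. The transcripts are therefore given by number and position without a function.

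The 17 libraries of 48 h held between 1092869 and 3102440 counts each (median 2061006), and the 18 of 18 h between 1134992 and 2029181 (median 1390360.5). The BIS transcript, which checks the strain labels, was at 5880 to 6436 FPKM in GB2, 3560 to 3743 in BIS3, 2156 to 3178 in BIS14, 310.0 to 317 in BIS18 and 1.11 to 1.84 in WT at 48 h, and in that same order at 18 h. The replicates were more variable than counting alone (chi-square per degree of freedom 1.14 to 14.7 over 49 pairs, median 3.61), and 0 pairs were identical. The labels do not say that replicates came from separate cultures, so p-values measure the spread between these libraries. WT replicates 4 to 6 did not overlap replicates 1 to 3 at 18 h in 81 of the 323 end transcripts tested (25.1%, 36 higher and 45 lower), against 28.2% of all transcripts tested. What separates these replicates was not stated, and its part in the 18 h comparisons was not tested beyond the alternatives given with them.

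The end windows were as densely packed as the rest of the scaffolds. They held 41.6 transcript midpoints per 100 kb, against 41.6 in the inner parts, and the median listed length was 1808 bp at the ends against 1783 bp inside. Neighbouring transcripts were separated by a median of 170.5 bp at the ends and 137 bp inside. A neighbour on either side was overlapped by 20.3% of end transcripts, against 24.4% of inner ones. The counting setting for strand was not given in the sources used here, so reads of overlapping transcripts on opposite strands could not be assigned with certainty. An end held 7 to 14 end transcripts. At scaffold starts the outermost transcript began between positions 1 and 1571, at position 1 on 2 scaffolds. At the opposite ends the highest end coordinate stood in for the scaffold length, so no such distance was available. Of the 360 end transcripts, 194 (53.9%, 95% Wilson interval 48.7 to 59.0%) were read towards the scaffold end. On the longest scaffold, scaffold 1, transcript 8503 (20070 to 23052) was the last inside the window and 8504 (23178 to 26734) the first outside. At its other end transcript 9414 (2191363 to 2192706) was inside and 9413 (2190228 to 2191185) outside the limit of 2191085. The last inside and first outside on the next 4 scaffolds by length were 12044 and 12045 at the start and 12837 and 12836 at the end of scaffold 2, 12862 and 12863 and then 13624 and 13623 on scaffold 3, 13900 and 13901 and then 14592 and 14591 on scaffold 5, and 14609 and 14610 and then 15211 and 15210 on scaffold 6.

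By the median, transcripts near scaffold ends were expressed at about the level of transcripts farther inside. Their share of the counts on the 18 scaffolds was below their share of the transcripts there in all 35 libraries. As the mean over the 10 strain and time groups of log2(FPKM + 1), where FPKM is fragments per kilobase of listed length, scaled to library sizes adjusted by the trimmed mean of M-values (TMM), the median was 4.99 at the ends (quartiles 3.92 and 5.86) and 4.84 inside (3.67 and 5.86). The median FPKM was 31.9 at the ends and 29.6 inside. The median of the end transcripts was the higher one in each of the 35 libraries, by 0.0020 to 0.27 on the log2 scale. By group this difference was 0.063 ± 0.038 in WT at 48 h (SD, n = 5) and 0.11 ± 0.022 in WT at 18 h (n = 6). It was largest in BIS3 at 18 h, at 0.21 ± 0.056 (n = 3), and smallest in BIS18 at 48 h, at 0.048 ± 0.013 (n = 3). The same transcripts make up both medians in each library, so the libraries are repeat measurements of 1 difference and no test was made over transcripts.

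**Figure D1:**
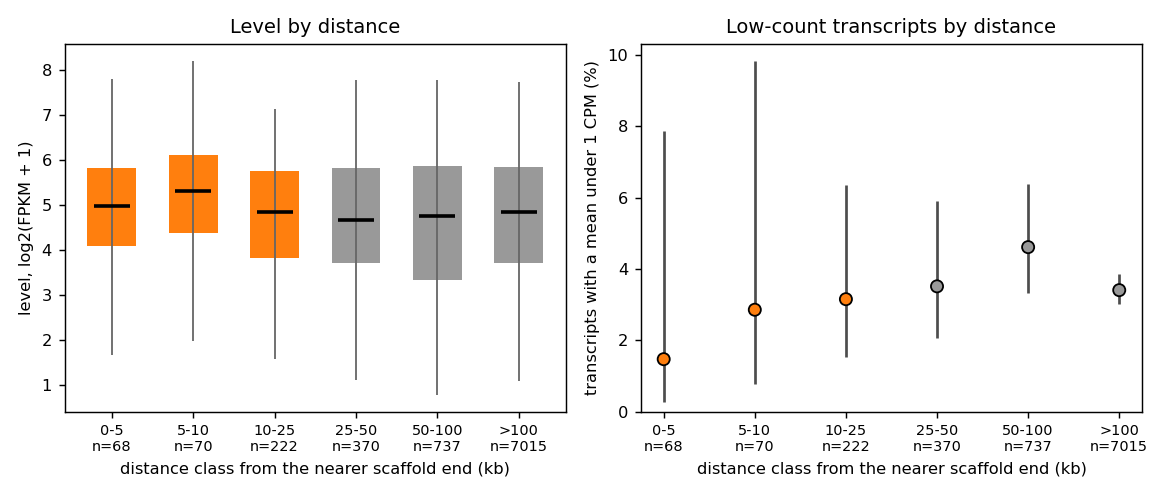
Level and share of low-count transcripts in 6 classes of distance from the nearer scaffold end, in kb, measured to the far edge of the transcript; orange marks the end windows and grey the inner classes, with the number of transcripts under each class. Left, level as log2(FPKM + 1), with the median (line), quartiles (box) and 5th to 95th percentile (whisker); right, percent of transcripts with a mean under 1 CPM with 95% Wilson intervals, which overlap in all classes. The medians run from 4.67 at 25 to 50 kb to 5.31 at 5 to 10 kb, with 4.99 in the outermost class.

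Within the windows the median level was highest in the middle class of distance. The 68 transcripts that reached no farther than 5 kb from an end had a median log2(FPKM + 1) of 4.99, the 70 at 5 to 10 kb 5.31 and the 222 at 10 to 25 kb 4.84. Farther inside the medians were 4.67 at 25 to 50 kb (370 transcripts), 4.76 at 50 to 100 kb (737) and 4.86 beyond 100 kb (7015). The outermost class held shorter transcripts, with a median length of 1406.5 bp against 1786 bp beyond 100 kb. Set at 10 kb in place of 25 kb, the window gave an end minus inner difference of 0.33, and set at 50 kb it gave 0.030.

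The share of low-count transcripts was not higher at the ends. A mean under 1 CPM (the count scaled by the same library sizes without the length) was found for 10 of 360 end transcripts (2.78%, Wilson interval 1.52 to 5.04%) and 286 of 8122 inner transcripts (3.52%, 3.14 to 3.94%). These intervals overlap, cover counting error only and treat transcripts as independent. Under 5 CPM there were 24 (6.67%) at the ends and 872 (10.7%) inside, a lower share at the ends. No intervals were made at that limit, so the overlap at 1 CPM does not extend to it, and the difference was not tested. No end transcript was at 0 counts in all libraries, against 18 inside. The 10 low-count end transcripts were 13625 on scaffold 3, 14604, 14606 and 15213 on scaffold 6, 16978 on scaffold 9, 9819 on scaffold 10, 10198 on scaffold 11, 10564 on scaffold 12, 11177 on scaffold 14 and 11190 on scaffold 15, and none of them exceeded 7 counts in a library. They lay at 9 different ends, with their far edges 371 to 23548 bp from the scaffold end.

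Among highly expressed transcripts the shares at the ends and inside were not tested against each other. At least 100 FPKM was reached by 43 end transcripts (11.9%) and 1103 inner ones (13.6%), and at least 500 FPKM by 5 (1.39%) and 160 (1.97%). The highest mean was 658 FPKM at the ends against 2381 FPKM inside. End transcripts took 3.60 to 3.95% of a library's counts on the 18 scaffolds, while they are 4.24% of the transcripts there and 4.13% of the listed length. The share was 3.86 ± 0.075% in WT at 48 h (n = 5), against 3.71 ± 0.036% in WT at 18 h (n = 6), with all WT libraries at 48 h above all at 18 h. In BIS3 it was 3.91 ± 0.031% at 48 h, against 3.65 ± 0.059% at 18 h (SD, n = 3 each). BIS14 had 3.81 ± 0.061% against 3.65 ± 0.012%, BIS18 3.76 ± 0.011% against 3.64 ± 0.016%, and GB2 3.76 ± 0.026% against 3.72 ± 0.038%, where the 48 h and 18 h libraries overlapped.

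**Figure D2:**
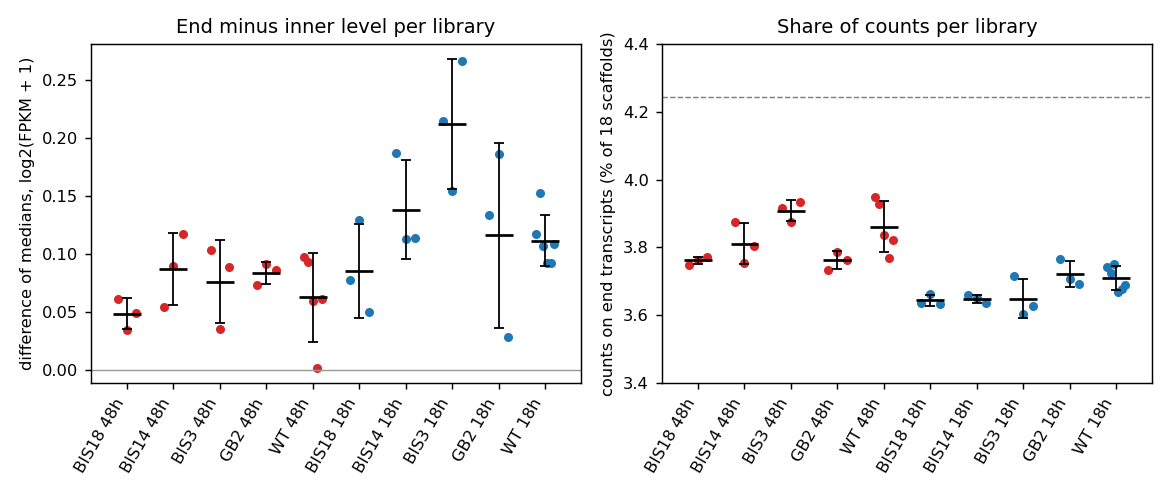
End transcripts in each of the 35 libraries, 48 h groups (red) left of 18 h groups (blue); points are libraries, lines and bars the group mean and SD. Left, median log2(FPKM + 1) of end transcripts minus that of inner transcripts, above 0 in 35 of 35 libraries; right, percent of the counts on the 18 scaffolds that fell on end transcripts (axis from 3.4 to 4.4%), between 3.60 and 3.95%, all under the dashed line at 4.24%, the percent of transcripts that are end transcripts.

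The 5 end transcripts with the highest FPKM in WT at 18 h lay on 4 scaffolds. Transcripts 12843 and 12845 are near the end of scaffold 2, 13887 near the end of scaffold 4, 11480 near the start of scaffold 16, and 11897 is the first transcript of scaffold 18 (scaffold 18, 158 to 1255, minus strand). Transcript 12845, which overlaps 12846 on the same strand, was at 2208, 2026 and 2400.2 CPM in GB2 at 18 h, 1328, 2123 and 1637 in BIS3 and 871 to 1066 (median 978) in WT, and GB2 did not overlap WT. At 48 h it was at 586, 601 and 614 CPM in GB2, against 459, 411, 397, 351 and 373 in WT. These levels fell with growth phase in WT by 1.29 on the log2 scale ± 0.09 (SE; adjusted p = 2.68e-14).

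Transcript 11897 begins at position 158 of scaffold 18 and overlaps its neighbour 11898 on the same strand. It was at 839, 851 and 919.8 CPM in GB2 and 827, 709.9, 631, 596 and 587 in WT at 48 h. At 18 h it was at 775, 799 and 803 CPM in GB2 and 496 to 627 (median 586) in WT. It was higher in GB2 at both times, by log2 fold changes of 0.38 ± 0.11 (SE; adjusted p = 0.00835) and 0.42 ± 0.10 (SE; adjusted p = 0.00147).

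For 13887 and 11480 the WT libraries themselves fell into separate sets. At 18 h 13887 was at 478, 544 and 502 CPM in WT replicates 1 to 3 and 254, 323 and 297 in replicates 4 to 6. GB2 lay between these sets, at 425, 415 and 402 CPM (adjusted p = 0.999). Transcript 11480 was at 398, 387 and 454 CPM in WT replicates 1 to 3 and 243, 262 and 282 in replicates 4 to 6, against which the 18 h differences of the engineered strains are to be read.

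The outermost transcripts of the scaffolds were mostly expressed. Over the 36 ends the last transcript had a median of 41.1 FPKM, 34 of 36 had a mean of at least 10 CPM and 1 was under 1 CPM (10564, 372 bp long, at the end of scaffold 12). On scaffolds 1, 2, 3, 5 and 6, the 5 longest, the outermost transcripts were 8497 and 9425, 12033 and 12846, 12855 and 13636, 13890 and 14601, and 14602 and 15220. Transcript 8497 was at 41.9, 42.7, 49.8, 66.0 and 47.2 CPM in WT at 48 h and 30.1 to 52.1 (median 38.6) at 18 h. Transcript 12033 was at 24.6, 31.9, 16.6, 14.2 and 14.3 CPM in WT at 48 h and 16.7 to 30.1 (median 22.6) at 18 h, and these overlapped. Transcript 14602 (scaffold 6, 45 to 3837, minus strand) was at 193, 162, 211, 206 and 207 CPM at 48 h and 185 to 215 (median 199) at 18 h.

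Of these 10 outermost transcripts, 5 were higher in WT at 48 h than at 18 h (8497, 9425, 12855, 13636 and 13890), 2 were lower (14601 and 15220) and 3 did not pass the test (12033, 12846 and 14602). The largest rise was that of 12855, which begins at position 1 of scaffold 3. It was at 779, 904, 848, 1011 and 986 CPM in WT at 48 h, against 123 to 196 (median 150.2) at 18 h, a log2 fold change of 2.57 ± 0.16 (SE; adjusted p = 4.04e-16). The next was 9425 at the end of scaffold 1, at 65.1, 68.6, 97.4, 84.4 and 89.5 CPM at 48 h, against 18.9 to 48.5 (median 38.3) at 18 h (log2 difference 1.12 ± 0.14 SE, adjusted p = 7.67e-09). For 12855 and 9425 the WT libraries of both times did not overlap. In all 4 engineered strains 12855 was lower than in WT at 48 h, at 500.2, 562 and 606 CPM in GB2 and 549, 478 and 552 in BIS3, by log2 fold changes between -0.79 and -0.51, with overlap between BIS14 and WT.

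At the end of scaffold 16 and the start of scaffold 18, 3 neighbouring transcripts recurred with the same layout. Transcripts 11657, 11658 and 11659 (scaffold 16, 455776 to 464680) and 11898, 11899 and 11900 (scaffold 18, 1093 to 9997) have listed lengths of 2370, 3635 and 2335 bp in that order, all on the minus strand, with a gap of 705 bp after the first and an overlap of 140 bp between the last pair, so that both runs span 8905 bp. Among 8446 windows of 3 neighbouring transcripts on the 18 scaffolds this was the only pair with equal lengths, strands and spacing in either order, and among 8464 windows of 2 neighbours there was 1 pair besides the 2 within this run. The transcripts on either side did not have matching lengths (1151 and 2148 bp beside the run on scaffold 16, 1098 and 1764 bp on scaffold 18). This run was looked for after its values had been seen.

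The counts of both copies, summed over libraries, were nearly equal. Over 35 libraries 11657 had 3705 counts and 11898 had 3736, 11659 had 6047 and 11900 had 6162, and 11658 had 15062 and 11899 had 15818. The ratio of the scaffold 16 copy to the scaffold 18 copy was 0.992, 0.981 and 0.952 in the same pairs. One library stood apart, WT replicate 3 at 48 h, where 11899 had 1035 counts and 11658 had 575. Reads that match both copies equally well cannot be assigned, and how such reads were treated was not given in the sources used here. The 6 transcripts are therefore uncertain as separate measurements, and a call of one is not a second observation beside the call of its copy.

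**Figure D3:**
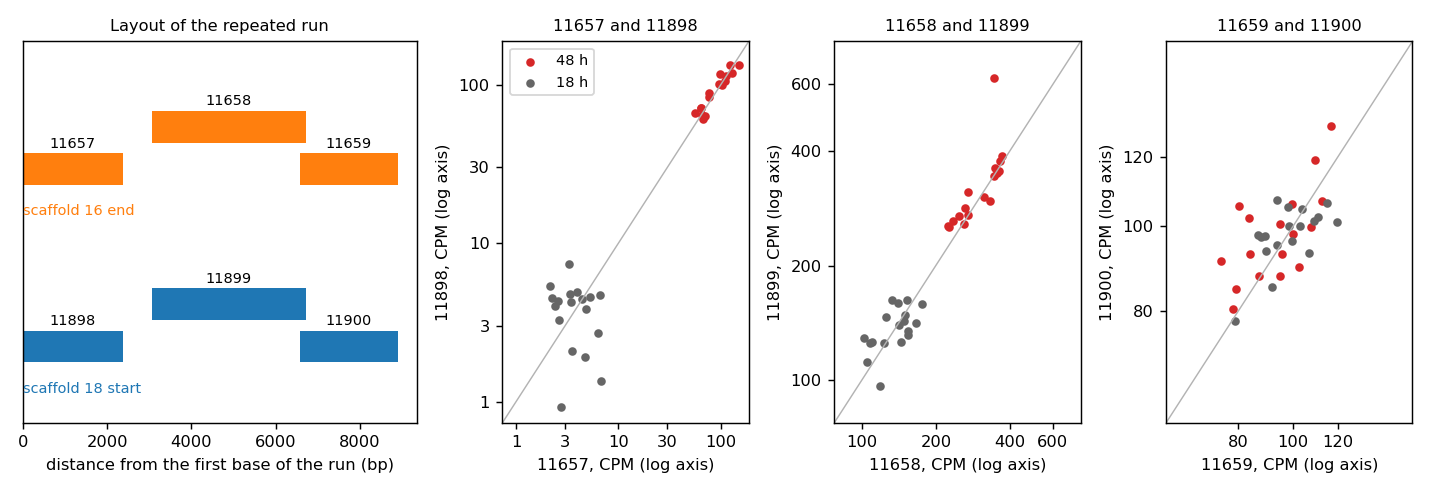
The run of 3 neighbouring end transcripts that recurs on scaffolds 16 and 18. Left, position of each transcript from the first base of its run in bp, the same on scaffold 16 (orange) and scaffold 18 (blue); right, TMM CPM of the scaffold 18 copy against the scaffold 16 copy in each of the 35 libraries (log axes), 48 h in red and 18 h in grey, with the line of equal values. Points scatter around the line, most widely where 11657 and 11898 had few counts at 18 h, and in the panel of 11658 and 11899 WT replicate 3 at 48 h stands above the other points, at 623 CPM for 11899 and 346 CPM for 11658.

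Growth phase changed most end transcripts, in the same proportion as elsewhere. With edgeR (quasi-likelihood F-test, p-values adjusted across the whole table after Benjamini and Hochberg, threshold 0.05), 131 of 341 end transcripts tested were higher and 116 lower in WT at 48 h than at 18 h (72.4%). Among all 7899 tested the figures were 37.1% higher and 34.9% lower, 72.0% together, so the share at the ends was that of the background. The other 19 of 360 end transcripts had too few counts to be tested. This fit did not pair libraries by replicate number. An alternative fit with a replicate block called 71.6% of end transcripts and 69.7% of all tested. The median log2 fold change was 0.083 at the ends and 0.034 inside, and the median of its size without sign 0.52 and 0.56. A change of at least 2-fold was found in 27.0% of end and 26.9% of inner transcripts.

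Over the 4 engineered strains, 130 of 341 end transcripts were higher and 126 lower at 48 h than at 18 h (75.1%), against 40.2% higher, 37.6% lower and 77.8% together of all tested. The median log2 ratio of 48 h over 18 h at the ends was 0.025 in GB2, 0.0090 in BIS3, 0.021 in BIS14, -0.0030 in BIS18 and 0.080 in WT. Inside it was 0.020, 0.062, 0.023, -0.0045 and 0.035 in the same order. These are ratios of group mean CPM with 1 added, not edgeR fold changes. The growth phase change differed between engineered strains and WT, by the interaction term, in 45 end transcripts in which it was more positive in the engineered strains and 45 in which it was more negative (26.4%), against 15.5%, 12.9% and 28.4% of all tested.

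Of 341 end transcripts tested in WT, 169 (49.6%, 82 higher and 87 lower) passed the test with at least 10 CPM and no overlap. The mean of at least 10 CPM was required at one time, and the 48 h and 18 h libraries were not to overlap. Of all transcripts tested, 51.2% met these conditions. The 6 largest rises lay on scaffolds 15 to 18. Transcripts 11657 and 11898, the first of the repeated run, rose most. Transcript 11657 was at 96.1, 98.7, 128, 111 and 150.0 CPM in WT at 48 h, against 2.15 to 6.70 (median 3.25) at 18 h, and 11898 at 101, 117, 118, 113 and 134 against 1.34 to 5.38 (median 4.42). Their log2 fold changes were 4.91 ± 0.17 (SE; adjusted p = 2.36e-23) and 4.79 ± 0.17 (SE; adjusted p = 7.14e-23). At 18 h neither exceeded 7.42 CPM in any library of any strain. At 48 h 11657 was at 66.9, 64.1 and 65.6 CPM in GB2, 56.2, 66.9 and 63.9 in BIS3, 77.4, 70.4 and 77.0 in BIS14 and 102, 109 and 122 in BIS18, the last overlapping WT and the others lower.

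Transcript 11185, near the start of scaffold 15, was at 38.7, 47.5, 45.7, 36.1 and 33.5 CPM in WT at 48 h, against 0.981 to 3.79 (median 2.50) at 18 h (log2 difference 4.14 ± 0.24 SE, adjusted p = 4.47e-17). Transcript 11887, near the end of scaffold 17, was at 273, 218, 279.6, 222 and 227 against 15.4 to 22.6 (median 18.4) (log2 difference 3.70 ± 0.14 SE, adjusted p = 8.17e-22). Neighbours 11663 and 11664 close scaffold 16 on opposite strands (473376 to 476074 and 476084 to 478415). Transcript 11663 was at 124, 123, 146, 129 and 145 CPM in WT at 48 h, against 6.45 to 13.7 (median 10.5) at 18 h, and 11664 at 75.6, 69.8, 50.2, 55.7 and 51.6 against 5.40 to 8.06 (median 6.38). Their log2 fold changes were 3.69 and 3.20. Against WT at 48 h they differed in opposite directions in GB2, with 11663 lower than WT (log2 difference -0.76 ± 0.12 SE, adjusted p = 2.58e-05) and 11664 higher (log2 difference 0.49 ± 0.14 SE, adjusted p = 0.00647), 11664 with overlap.

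The largest fall was that of 9817 near the end of scaffold 10 (scaffold 10, 924621 to 927018, plus strand). It was at 106, 131, 113, 120.5 and 118 CPM in WT at 48 h, against 768 to 1009 (median 882) at 18 h (log2 difference -2.89 ± 0.13 SE, adjusted p = 6.62e-20). In GB2 it was at 226, 235 and 234 CPM at 48 h, against 545, 471 and 517 at 18 h, so that GB2 was higher than WT at 48 h and lower at 18 h. The fall was smaller in the engineered strains, by an interaction of 1.14 ± 0.15 (SE; adjusted p = 5.96e-07).

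Transcripts 10879 and 10881 near the end of scaffold 13 both fell in WT, by 2.48 and 2.45 on the log2 scale, but differed in the engineered strains. Transcript 10879 was at 4.10, 8.42, 6.04, 6.12 and 3.85 CPM in WT at 48 h, against 25.8 to 33.5 (median 31.5) at 18 h. At 18 h it was at 85.1, 80.8 and 76.9 CPM in GB2, 60.7, 105 and 81.3 in BIS3, 88.9, 59.8 and 56.1 in BIS14 and 32.2, 29.9 and 43.4 in BIS18. GB2, BIS3 and BIS14 lay above every WT library there, and the interaction was negative (log2 difference -1.06 ± 0.26 SE, adjusted p = 0.00207). Transcript 10881 was at 111, 103, 98.5, 119 and 95.3 CPM in WT at 48 h, against 488 to 620.3 (median 601) at 18 h, with an interaction of the other sign (log2 difference 0.80 ± 0.17 SE, adjusted p = 0.000675).

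Transcript 13885, near the end of scaffold 4, was at 72.4, 72.8, 56.6, 70.5 and 71.1 CPM in WT at 48 h, against 243 to 340.3 (median 310.0) at 18 h (log2 difference -2.14 ± 0.12 SE, adjusted p = 1.15e-17). Transcript 12843 was at 284, 273, 269.8, 271 and 275 CPM against 1029.7 to 1177 (median 1107) (log2 difference -2.02 ± 0.12 SE, adjusted p = 3.78e-17). Transcript 15220, the last of scaffold 6, was at 23.7, 22.9, 22.3, 28.3 and 25.5 CPM against 81.2 to 130.4 (median 108) (log2 difference -2.07 ± 0.13 SE, adjusted p = 5.56e-16). All 6 falls had no overlap between times in WT, which was a condition for naming them.

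**Figure D4:**
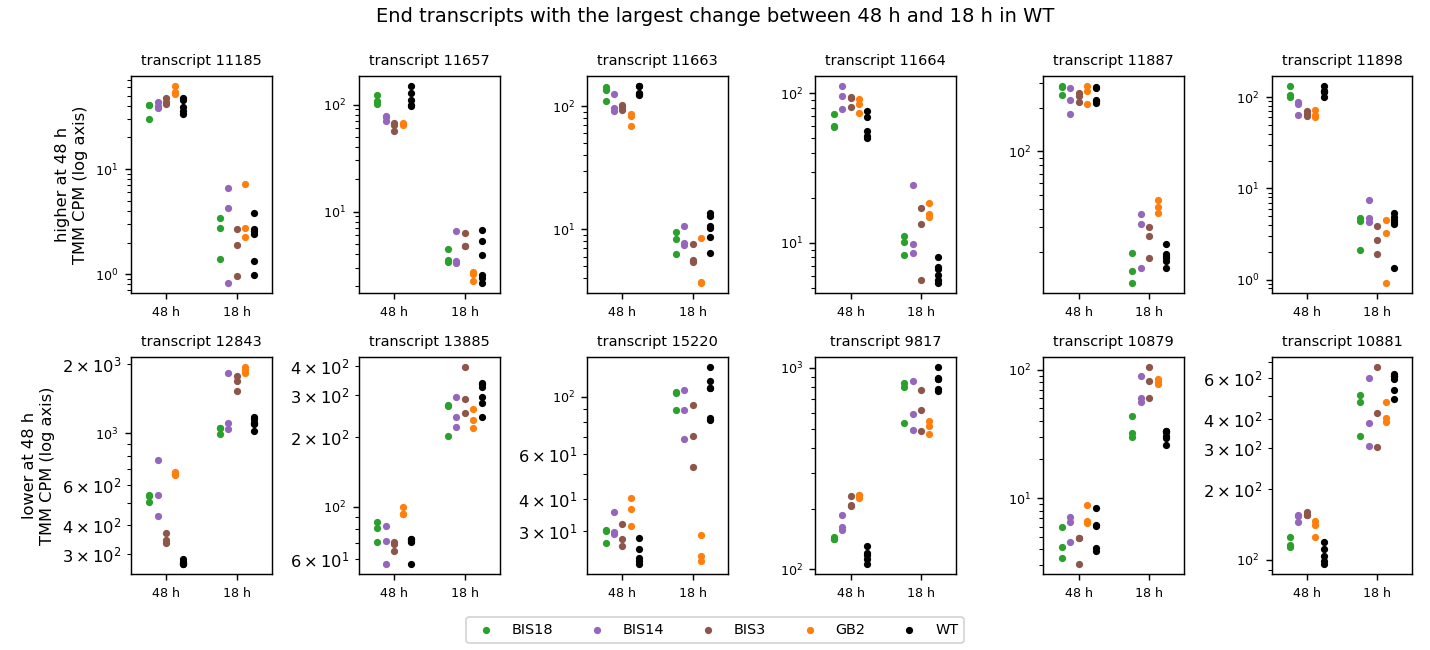
TMM CPM (log axes, which differ between panels) of the 12 end transcripts with the largest change in WT between 48 h (left in each panel) and 18 h (right); points are libraries, coloured by strain in the order BIS18, BIS14, BIS3, GB2 and WT. Top row, the 6 transcripts higher at 48 h, which include 11657 and 11898 of the repeated run; bottom row, the 6 lower at 48 h. The 12 were chosen among transcripts that passed the test with at least 10 CPM and no overlap. In WT (black) the libraries of both times therefore do not overlap in any panel.

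The strains were set against WT at each time to see how many transcripts at the ends differed in strains with a cassette. At 18 h 323 end transcripts and 7375 transcripts in all were tested. In BIS18 0 end transcripts passed the test in edgeR and 0 in DESeq2. With edgeR, 16 of 323 had an unadjusted p under 0.05, against 554 of 7375 of all tested. The adjusted test called 0.475% higher, 0.0542% lower and 0.529% together of all tested in BIS18. In BIS14 28 end transcripts were higher and 18 lower (14.2%), against 10.5%, 7.02% and 17.6% of all tested. In BIS3 57 were higher and 35 lower (28.5%), against 17.3%, 15.3% and 32.6%. In GB2 78 were higher and 82 lower (49.5%), against 26.3%, 28.0% and 54.3%. The share called at the ends was somewhat under that of all transcripts in BIS14, BIS3 and GB2, a difference that was not tested. In GB2 the median size of the log2 fold change was 0.38 at the ends and 0.45 inside, and 51 end transcripts (15.8%) against 19.8% of inner ones differed by at least 2-fold. With WT replicates 1 to 3 alone, 5.28% of end transcripts were called in BIS14 and 16.1% in BIS3, against 6.36% and 18.8% of all tested.

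At 48 h 341 end transcripts and 7913 in all were tested. In BIS18 38 end transcripts were higher and 26 lower (18.8%), against 11.1%, 7.82% and 18.9% of all tested. In BIS14 64 were higher and 48 lower (32.8%), against 19.5%, 16.3% and 35.7%. In BIS3 49 were higher and 38 lower (25.5%), against 13.5%, 11.5% and 25%. In GB2 72 were higher and 69 lower (41.3%), against 22.2%, 20.5% and 42.7%. These shares were close to the background in each strain. With WT replicate 2 at 48 h kept they were 3.23%, 12.6%, 8.21% and 20.5% in BIS18, BIS14, BIS3 and GB2, against 2.99%, 13.4%, 6.34% and 19.6% of all tested. Without BIS18 replicates 1 and 2 in turn the share in BIS18 was 8.48% and 10.5%, against 10.4% of all tested in each case, while without BIS3 replicate 3 that in BIS3 was 16.7%, against 16.8% of all tested. All strains were set against the same WT libraries. Of the 323 end transcripts tested at both times, 66 (20.4%) were called in none of the 8 strain comparisons, against 1083 of 7020 inner ones (15.4%).

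In GB2 at 18 h, 138 of 323 end transcripts tested (42.7%, 76 higher and 62 lower) had a mean of at least 10 CPM and did not overlap WT, against 47.7% of all tested. The largest rise was that of 9415, near the end of scaffold 1 (scaffold 1, 2192735 to 2195602, minus strand). It was at 756, 590.1 and 729 CPM in GB2, 154, 398 and 185 in BIS3, 124, 58.1 and 67.6 in BIS14 and 40.6, 39.8 and 39.3 in BIS18, against 29.6 to 63.6 (median 47.9) in WT. The level was highest in GB2 and next in BIS3, whose libraries ranged widely, and the log2 fold change was 3.81 ± 0.24 (SE; adjusted p = 1.75e-10) in GB2 and 2.34 ± 0.25 (SE; adjusted p = 1.44e-06) in BIS3. At 48 h it was at 74.4, 91.7 and 91.3 CPM in GB2 and 77.9, 69.8, 74.3, 57.7 and 62.9 in WT, a difference of 0.33.

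Transcript 10206, near the start of scaffold 12, was at 681, 710.3 and 647 CPM in GB2 at 18 h, 416, 594 and 384 in BIS3, 290.0, 218 and 307 in BIS14 and 80.4, 78.0 and 86.1 in BIS18, against 47.8 to 77.3 (median 70.0) in WT. The log2 fold changes were 3.29, 2.77, 2.02 and 0.29, of which that of BIS18 did not pass the test, so the order followed cassette copy number, although every BIS18 library lay above every WT library. At 48 h it was higher than WT in all 4 strains, by 0.65 to 1.09, with BIS14 the highest at 366, 504 and 418 CPM, against 252, 167, 212, 175 and 201 in WT. Transcript 11471, near the end of scaffold 15, had the same order at 18 h, with 758, 735 and 702 CPM in GB2, 459, 454 and 379 in BIS3, 526, 325 and 312 in BIS14 and 138, 155 and 144 in BIS18, against 121 to 140.3 (median 133) in WT. BIS3 and BIS14 overlapped one another there.

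Transcript 15807, near the end of scaffold 7, stood apart in GB2. It was at 2782, 2360.5 and 2641 CPM in GB2 at 18 h, 475, 1104 and 681 in BIS3 and 591, 502 and 456 in BIS14, against 339 to 575 (median 440.2) in WT (log2 difference 2.48 ± 0.18 SE, adjusted p = 1.42e-09 for GB2). At 48 h GB2 was at 498, 480.1 and 481 CPM, against 219, 193, 268, 306 and 278 in WT (log2 difference 0.93 ± 0.11 SE, adjusted p = 1.14e-06).

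The largest falls in GB2 at 18 h were in 16400, 16411, 13895 and 15220. Transcript 16411, near the start of scaffold 9, was at 20.1, 22.9 and 33.6 CPM in GB2 and 136, 68.7 and 118 in BIS3, against 142 to 195 (median 157) in WT, and fell by 2.72 on the log2 scale in GB2. At 48 h it was at 138, 157 and 177 CPM in GB2 and 238, 233, 195, 178 and 206 in WT, a change of -0.41. Transcript 16400, near the end of scaffold 8, was at 3.25, 1.84 and 0.747 CPM in GB2, against 10.3 to 22.1 (median 17.1) in WT (log2 difference -3.11 ± 0.46 SE, adjusted p = 9.72e-06) on 5, 2 and 1 reads in GB2.

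Transcript 13895, near the start of scaffold 5, was lower in GB2 than in WT at 18 h and higher at 48 h. It was at 12.3, 14.7 and 17.9 CPM in GB2 at 18 h, against 50.7 to 74.7 (median 60.2) in WT (log2 difference -2.10 ± 0.19 SE, adjusted p = 1.96e-08). At 48 h it was at 59.0, 36.6 and 33.9 CPM in GB2, against 15.9, 11.4, 17.4, 21.6 and 27.2 in WT (log2 difference 1.14 ± 0.21 SE, adjusted p = 0.000173). Transcript 15220 had the same signs, with 24.0, 22.9 and 29.1 CPM in GB2 at 18 h, against 81.2 to 130.4 (median 108) in WT (-2.08), and 40.5, 31.3 and 36.4 at 48 h, against 23.7, 22.9, 22.3, 28.3 and 25.5 (0.54).

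In GB2 at 48 h, 119 of 341 end transcripts tested (34.9%, 60 higher and 59 lower) had a mean of at least 10 CPM and did not overlap WT, against 34.0% of all tested. The largest rise was that of 9434, near the start of scaffold 10, at 159.7, 181 and 172 CPM in GB2, 50.2, 52.9 and 52.6 in BIS3, 72.8, 80.5 and 77.9 in BIS14 and 57.3, 59.7 and 60.4 in BIS18, against 31.4, 24.7, 38.9, 30.9 and 33.2 in WT. All engineered libraries lay above all WT libraries, and the log2 fold change in GB2 was 2.40 ± 0.10 (SE; adjusted p = 3.98e-14). At 18 h it was at 7.14, 7.34 and 5.97 CPM in GB2, against 4.42 to 10.6 (median 7.88) in WT, and did not pass the test.

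Transcript 11483, near the start of scaffold 16, was at 64.7, 29.4 and 42.4 CPM in GB2, 28.7, 40.5 and 25.7 in BIS14 and 24.8, 23.4 and 27.9 in BIS18, against 6.38, 6.62, 6.79, 12.9 and 11.8 in WT, whereas BIS3, at 11.1, 9.75 and 10.2, overlapped WT. The nearby 11485 was lower, at 13.2, 11.4 and 9.86 CPM in GB2, against 22.3, 22.3, 27.5, 33.8 and 31.9 in WT (log2 difference -1.29 ± 0.19 SE, adjusted p = 1.55e-05). Transcript 13646, near the start of scaffold 4, was at 1.76, 6.17 and 4.71 CPM in GB2, against 9.56, 13.8, 11.7, 11.9 and 13.2 in WT (log2 difference -1.52 ± 0.28 SE, adjusted p = 0.000156). Its GB2 values rest on 4, 13 and 11 reads.

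At 48 h 17 end transcripts were higher than WT in all 4 engineered strains (4.99% of 341) and 7 were lower (2.05%), against 3.94% and 2.16% of all tested. At 18 h, with no call in BIS18, the counts were 0 and 0, against 0.136% and 0.0407% of all tested. DESeq2 also called 0 end transcripts in BIS18. With edgeR, 16 of 323 end transcripts had an unadjusted p under 0.05 in that strain, against 554 of 7375 of all tested. In BIS14, BIS3 and GB2 alone, 28 end transcripts were higher (8.21%) and 20 lower (5.87%) at 48 h, against 7.41% and 4.95%, and 21 were higher (6.50%) and 8 lower (2.48%) at 18 h, against 6.26% and 4.26%. The 4 with the largest mean change among the 17 were 11666, 9434, 11471 and 12843. Transcript 11666, near the start of scaffold 17, was at 421, 507 and 567 CPM in GB2, 441, 434 and 426 in BIS3, 499, 1135 and 639 in BIS14 and 422, 393 and 415 in BIS18, against 143, 148, 129, 132 and 149 in WT. At 18 h it was at 255, 314 and 314 CPM in GB2, against 250.2 to 340.2 (median 305) in WT, with overlap. WT fell by 1.12 on the log2 scale between the times while the engineered strains rose by 0.62, and this difference was 1.74 ± 0.16 (SE; adjusted p = 6.43e-10).

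Transcript 11471 was at 146, 206 and 182 CPM in GB2, 87.7, 91.9 and 90.4 in BIS3, 86.5, 267 and 121 in BIS14 and 91.2, 119 and 116 in BIS18, against 60.6, 54.1, 60.8, 53.1 and 53.6 in WT, with BIS14 spread the most. For 12843 the values were 661, 677 and 669 CPM in GB2, 335, 368 and 346 in BIS3, 437, 769 and 539 in BIS14 and 532, 505 and 541 in BIS18, against 284, 273, 269.8, 271 and 275 in WT. In 11666, 11471 and 12843, all engineered libraries were above all WT libraries at 48 h, and the highest of the BIS14 values was that of replicate 2.

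The 7 that were lower in all 4 strains at 48 h were 9422, 12855, 13631, 13635, 16411, 10190 and 10209. The largest change was in 10209, near the start of scaffold 12, at 37.0, 30.4 and 27.4 CPM in GB2, 27.9, 17.4 and 23.8 in BIS3, 49.9, 25.6 and 43.4 in BIS14 and 56.4, 61.1 and 56.0 in BIS18, against 72.4, 83.6, 89.4, 90.8 and 93.4 in WT. Its log2 fold changes were -1.45, -1.88, -1.13 and -0.59 in the same order. It lies inside of 10206, which was higher in the same comparisons. The other changes were smaller. Transcript 10190, near the end of scaffold 11, was at 9.24, 10.9 and 15.0 CPM in GB2, against 17.3, 19.3, 19.2, 17.4 and 17.9 in WT (-0.63), and 13631 and 13635, both near the end of scaffold 3, changed in GB2 by -0.71 and -0.90. Transcript 9422 was at 62.0, 70.3 and 66.0 CPM in GB2, against 92.4, 85.4, 72.5, 79.9 and 82.7 in WT, and changed by -0.49 to -0.32 over the 4 strains.

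The share of transcripts called varied from end to end, and this spread was not tested. Of ends with at least 5 transcripts tested in GB2 at 18 h, the end of scaffold 7 had the highest share called, 8 of 10 (3 higher and 5 lower), and the end of scaffold 5 the lowest, 0 of 8. An end had 6 to 12 transcripts tested, so 1 transcript moves such a share widely. On scaffold 10 the inner transcripts were themselves higher in GB2, with a median log2 fold change of 0.44 at 48 h and 0.35 at 18 h. Its end had medians of 0.85 at 48 h, where 7 of 7 tested were called higher, and 0.66 at 18 h, and its start had 0.42 and 0.27. Whether its end differs from its inner part was not tested.

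Neighbouring end transcripts were called in the same direction in 25 runs of 3 or more over the 8 strain comparisons, of which 7 were in GB2 at 48 h and 8 in GB2 at 18 h. The longest was at the end of scaffold 10 in GB2 at 48 h, where 9814 to 9818 were higher by 0.37 to 0.97 (median 0.92), against a median of 0.44 over the scaffold's inner transcripts, which the lowest of the 5 did not reach. At the end of scaffold 8, 16399 to 16402 were lower in GB2 at 18 h by log2 fold changes of -3.11 to -0.47, while the inner median of that scaffold was -0.02. At the start of scaffold 17, 11665 to 11668 were higher in BIS14 at 48 h by 0.95 to 2.44, with an inner median of 0.0032. At the end of scaffold 11, 10190 to 10192 were lower at 18 h in GB2 (-1.02 to -0.85) and in BIS3 (-0.89 to -0.77), which share the WT libraries and of which GB2 was built from BIS3. In GB2 at 48 h, 2 of the 7 runs were the repeated run itself, on scaffold 16 (-0.85 to -0.49) and on scaffold 18 (-0.84 to -0.36). How often such runs occur among inner transcripts was not examined.

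**Figure D5:**
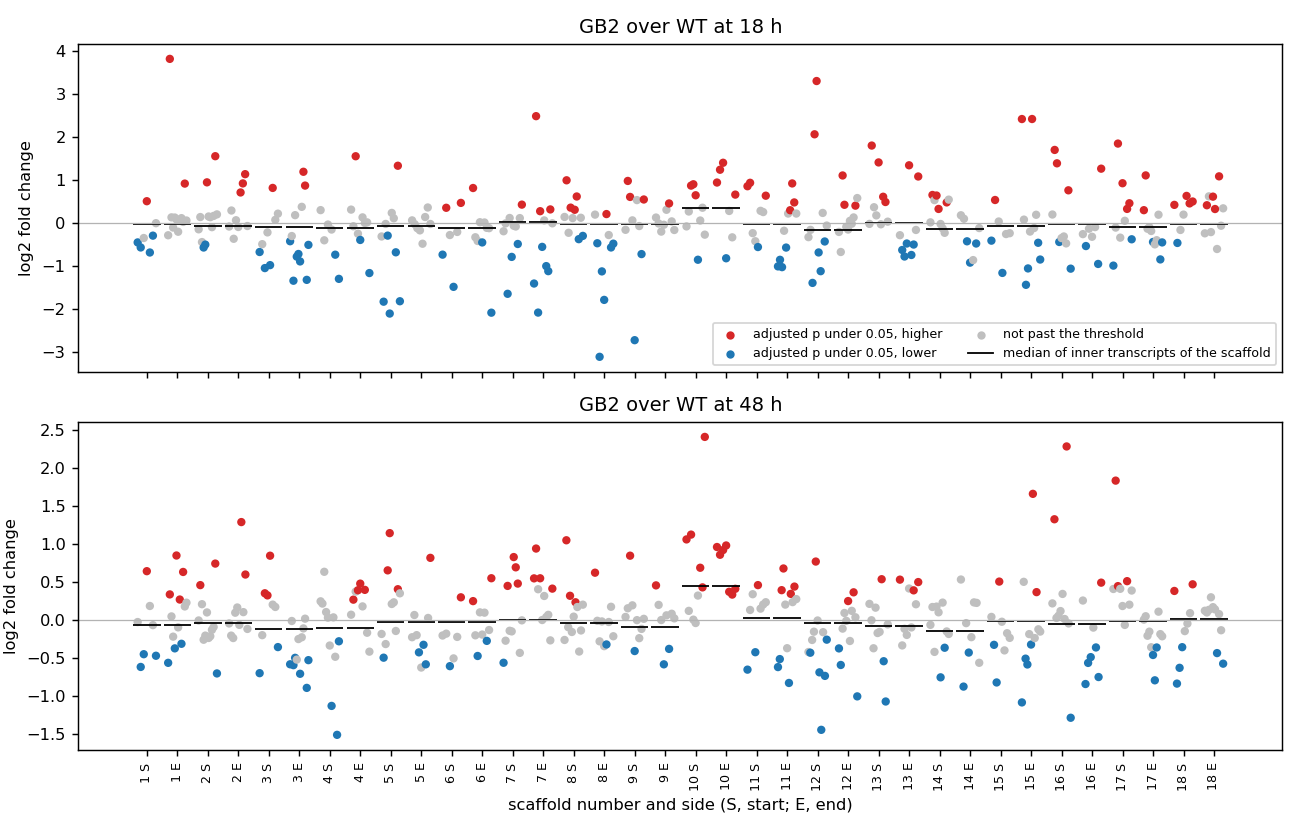
Log2 fold change of GB2 over WT for each end transcript tested, at 18 h (top) and 48 h (bottom), by scaffold number and side (S, start; E, end). Red and blue points passed the test as higher and lower, grey points did not, and black lines mark the median of the inner transcripts of the scaffold, which is raised on scaffold 10 (0.35 at 18 h and 0.44 at 48 h). Calls of both directions occur at most ends, from 0 of 8 tested at the end of scaffold 5 to 8 of 10 at the end of scaffold 7 at 18 h.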

How the data were processed

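The authors deposited 1 table of read counts per transcript for 36 libraries, with the position, strand and listed length of each transcript. Per the labels and the study's methods, RNA libraries (TruSeq RNA v2) were sequenced as paired ends on a MiSeq, reads were trimmed with BBTools, aligned with HISAT2 and counted with featureCounts. Tool versions, strand setting and treatment of reads with several matches are not given in the sources used here. Counts were used as deposited. WT replicate 2 at 48 h was left out. Tests used edgeR 4.0.16 (filterByExpr, TMM, quasi-likelihood fit, R 4.3.3) in 3 fits, with 18 libraries of 18 h, 17 of 48 h and 35 for growth phase, p-values adjusted over all transcripts tested (7375, 7913 and 7899) at a threshold of 0.05. The pseudocount of FPKM was 1. DESeq2 1.42.0, other normalization, filters, windows, WT sets and left-out libraries were alternatives. Same-numbered WT libraries of 48 h and 18 h deviated together (correlations 0.123 to 0.241, 5 of 5 pairs over 0.1). Over all strains the correlations ran from -0.233 to 0.241 (median 0.0123), with 6 of 17 pairs over 0.1. Pairs of different numbers are not given here, and the labels do not say that a number marks a shared culture. The growth phase values reported above come from the fit without pairing, and a fit with a replicate block was an alternative. The shares of transcripts under 1 CPM and of those read towards the scaffold end carry 95% Wilson intervals, and other shares carry none.

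Named transcripts were the 5 with the highest FPKM in WT at 18 h, the outermost on the 5 longest scaffolds, the largest called changes with no overlap and at least 10 CPM (6 each way for growth phase, 4 for GB2 at 18 h, 3 for GB2 at 48 h), those called one way in all 4 strains, and the repeated run. Members and lists were chosen with earlier results of these data known. In simulated counts for GB2 against WT at 18 h, 88 of 102 transcripts changed 2-fold and 97 of 98 changed 4-fold were recovered. There were 6 false calls (7311 tested). At 48 h 99 of 101 and 99 of 99 were recovered, with 13 false calls (7881 tested). For WT between times, 96 of 101 and 99 of 99 were recovered, with 10 false calls (7787 tested). Far fewer transcripts were changed in the simulation than were called in GB2 at 18 h (54.3% of all tested). These figures therefore do not give the recovery in the comparisons themselves. They also do not describe recovery of low-count transcripts, or recovery where WT replicates fall into separate sets.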

Additional observations from a re-analysis of the deposited data

Results flagged for a closer look

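Only the WT groups hold 4 to 10 libraries. Of 96 such groups of values of named end transcripts, 6 had 1 library far from the others by Dixon's criterion, which flags about 1 in 20 groups by chance. Transcript 11898 of the repeated run was at 1.34 CPM in WT replicate 3 at 18 h, and the next lowest was at 4.03. Its neighbour 11899 was at 623 CPM in WT replicate 3 at 48 h, and the next highest was at 388. Transcript 13635 was at 63.7 CPM in WT replicate 4 at 18 h (next 57.6), and 13636 at 65.3 CPM in WT replicate 6 at 18 h (next 82.5). Transcript 13885 was at 56.6 CPM in WT replicate 4 at 48 h (next 70.5), and 13887 at 459 CPM in WT replicate 1 at 48 h (next 283).

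For 19 named end transcripts the growth phase change differed between the engineered strains and WT by the interaction term in edgeR. It was more positive in the engineered strains for 11666 by 1.74 on the log2 scale (adjusted p = 6.43e-10), 13895 by 1.20 (3.44e-05), 9817 by 1.14 (5.96e-07), 9434 by 1.09 (0.00242), 15220 by 1.06 (8.17e-06), 10881 by 0.80 (0.000675), 14601 by 0.61 (0.00398), 12843 by 0.54 (0.00244), 16411 by 0.46 (0.0166) and 13885 by 0.39 (0.0323). It was more negative for 10209 at -1.77 (6.03e-08), 9415 at -1.53 (5.67e-06), 10206 at -1.27 (8.13e-08), 10879 at -1.06 (0.00207), 13631 at -0.67 (0.00150), 9422 at -0.55 (0.000295), 15807 at -0.49 (0.0324), 13636 at -0.40 (0.0191) and 11659 at -0.33 (0.0141), whose copy 11900 in the repeated run did not pass the test (-0.17, 0.209). Most of these transcripts were named for their change in a comparison that enters the term, and 26.4% of end transcripts and 28.4% of all tested passed the same test.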

How the results depend on the processing

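The counts of calls depended on the WT libraries, and the share of end transcripts called moved with the share of all transcripts. With WT replicate 2 at 48 h kept, GB2, BIS3, BIS14 and BIS18 had 20.5%, 8.21%, 12.6% and 3.23% of end transcripts called at 48 h, against 19.6%, 6.34%, 13.4% and 2.99% of all tested. With WT replicates 1 to 3 only, 0.932% were called in BIS18, 5.28% in BIS14 and 16.1% in BIS3 at 18 h, 12.9% in BIS3 at 48 h and 14.1% for the interaction, against 1.79%, 6.36%, 18.8%, 10.6% and 13.5% of all tested. In WT between 48 h and 18 h, the replicate block paired libraries of the same number, which the labels do not tie to a shared culture. That fit called 71.6% of end transcripts (69.7% of all tested) and changed no call of a named transcript. Between strains the libraries share only a number (5 of 30 pairs at 18 h and 3 of 26 at 48 h correlated over 0.1), and the block called 0.929%, 4.95% and 15.2% in BIS18, BIS14 and BIS3 at 18 h and 20.8% and 12.9% in BIS14 and BIS3 at 48 h, against 1.27%, 5.51%, 16.9%, 18.4% and 10.2% of all tested. A window of 50 kb gave 0.309% in BIS18 at 18 h. The level difference was 0.33 with a window of 10 kb, 0.030 with 50 kb and 0.075 in CPM without length. The share of low-count transcripts was 6.67% at the ends and 10.7% inside under 5 CPM, and 0% and 0.222% at 0 counts in every library. Taking off the median of its scaffold's inner transcripts turned the uncalled change of 11659 in WT to -0.026.

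Leaving out 1 library at a time gave 32.7 to 41.9% for GB2, 16.7 to 28.4% for BIS3, 23.7 to 33.7% for BIS14 and 8.48 to 17.6% for BIS18 at 48 h (33.9 to 42.0%, 16.8 to 27.8%, 22.4 to 37.5% and 10.4 to 19.2% of all tested), and 10.5 to 15.5%, 23.4 to 28.8% and 40.6 to 48.9% in BIS14, BIS3 and GB2 at 18 h (13.3 to 17.5%, 24.6 to 31.3% and 46.2 to 53.5% of all tested). The low values in BIS18 were without its replicates 1 (8.48%) and 2 (10.5%), and that in BIS3 without its replicate 3. The level difference stayed between 0.137 and 0.154. Of the tests of named transcripts, DESeq2 lost 1 call and another normalization 0, WT replicates 1 to 3 lost 11, WT replicates 4 to 6 lost 8, the replicate block 10, and keeping WT replicate 2 at 48 h 24 (with 2 gained). Leaving out 1 library lost a call in 43 of the refits of a named transcript. Taking off the scaffold's inner median moved 7 values. Too few counts kept 19 of 360 end transcripts out of the growth phase test.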
